A study of Mus musculus with 13 samples.

Results

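FGF21, the 4 FGF receptor genes (Fgfr1, Fgfr2, Fgfr3 and Fgfr4) and the genes of the co-receptors beta-klotho (Klb) and klotho (Kl) were compared between the gastrocnemius muscles of UCP1 transgenic and wild-type mice. These 7 genes were taken by name, with every probe that carries one of the names, from the 34797 gene names on the array. They had 13 probes of 55681. The ligand and all 4 receptors had at least 1 probe with signal in this muscle, and the co-receptors Klb and Kl had none. Fgf21 was 16.2-fold higher in the transgenic muscles, Fgfr4 was slightly lower, and Fgfr1, Fgfr2 and Fgfr3 did not pass the test.

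The arrays held RNA of 13 adult male C57BL/6J mice, 6 wild type and 7 littermates with a UCP1 transgene, given as 12 weeks old, on a purified low fat diet that lasted 12 weeks. UCP1, the uncoupling protein of brown fat mitochondria, lets protons re-enter the mitochondrial matrix without making ATP. The labels name neither the promoter that drives the transgene nor the number of founder lines, so the cells that carry it are known here only as far as the tissue goes. Each array was hybridised with 1 mouse in the Cy5 channel and a common reference pool in the Cy3 channel, with no dye swap, and levels are log2 ratios of mouse over pool. All ratios of a gene share this pool, and a ratio ranks mice within 1 probe but does not rank 1 gene above another.

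FGF21 is a circulating hormone of the endocrine FGF subfamily. Unlike the classical FGFs, which are held near their source by heparan sulfate, endocrine FGFs bind a klotho protein together with an FGF receptor. FGF21 uses beta-klotho, mainly with the c splice form of FGFR1, and the liver is its main source in the fasted mouse. FGF23, another endocrine member, uses klotho in the kidney. The activated receptors signal through the docking protein FRS2 to the Ras and ERK cascade. In skeletal muscle, FGF21 is known as a factor released during mitochondrial and amino acid stress.

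Between 20643 and 24036 of the 55681 probes (37.1% to 43.2%) were well above background in Cy5 on each array, and 17257 genes were tested. Of them 5695 (33.0%) had a Benjamini-Hochberg adjusted p under 0.05 in limma, 16.9% of all genes higher and 16.1% lower in the transgenic muscles. Skeletal muscle fibre markers were measured in 6 of 6 cases, whereas 7 of 8 white adipocyte markers were measured too. Over the 6 wild types Ucp1 read -2.91 ± 1.71 (SD) and over the 7 transgenic muscles 0.32 ± 0.38 (SD), a difference of 3.23 ± 0.50 (SE, limma adjusted p = 5.5e-05). For Ucp1 the array labelled wild type 4 goes against its label. It read 0.45 for Ucp1, whereas the other 5 arrays labelled wild type did not exceed -2.82. For Fgf21, Trib3 and Atf5, whose groups did not overlap, it read with the wild types. Its values were -3.60, -3.77 and -1.92, against wild-type means of -3.39, -3.80 and -1.91. Markers of fat cells were also highest on that array among the wild types. The white adipocyte markers had a mean centred log2 ratio of 0.19 there, against -0.59 to -0.34 in the other wild types and -0.08 to 0.60 in the transgenic muscles. The 4 brown adipocyte markers measured had 0.77, against -0.45 to -0.08 in the other wild types and at most 0.22 in any transgenic muscle. Cidea, a lipid droplet protein of brown fat, read 1.80 on that array, against a mean of -1.07 over the 6 wild types. The other brown adipocyte markers moved less there, so the mean of 0.77 rests mostly on Cidea. Dio2 read 0.20, Zic1 0.17 and Ppara -0.02, against wild-type means of -0.26, 0.03 and -0.13. Brown fat normally expresses Ucp1, and the part of these markers in the Ucp1 reading was not tested. The results on the ligand and the receptors are therefore given with and without the array labelled wild type 4, and for the gene lists a changed count of calls without it is stated. Ucp1 differed by 3.91 ± 0.20 (SE) when it was left out (limma adjusted p = 2.6e-11).

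The ligand gave the clear difference. The 6 wild-type muscles read -3.65 at the lowest, -3.40 at the median and -3.14 at the highest for Fgf21. The 7 transgenic muscles read -0.19 at the lowest, 0.62 at the median and 1.12 at the highest. The groups did not overlap, and the lowest transgenic mouse lay far above the highest wild type; 7.35% of all genes had every transgenic array above every wild type. The means were -3.39 ± 0.22 (SD, n = 6) and 0.62 ± 0.47 (SD, n = 7). The difference was 4.02 ± 0.17 (SE, 95% interval 3.67 to 4.37), a 16.2-fold change with an interval of 12.7 to 20.6 (limma, Benjamini-Hochberg adjusted p = 8.2e-13). By size it ranked 4 among the 17257 genes. In bulk tissue, fewer cells of a type and less RNA per cell cannot be told apart, and this holds for every difference reported here.

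**Figure D1:**
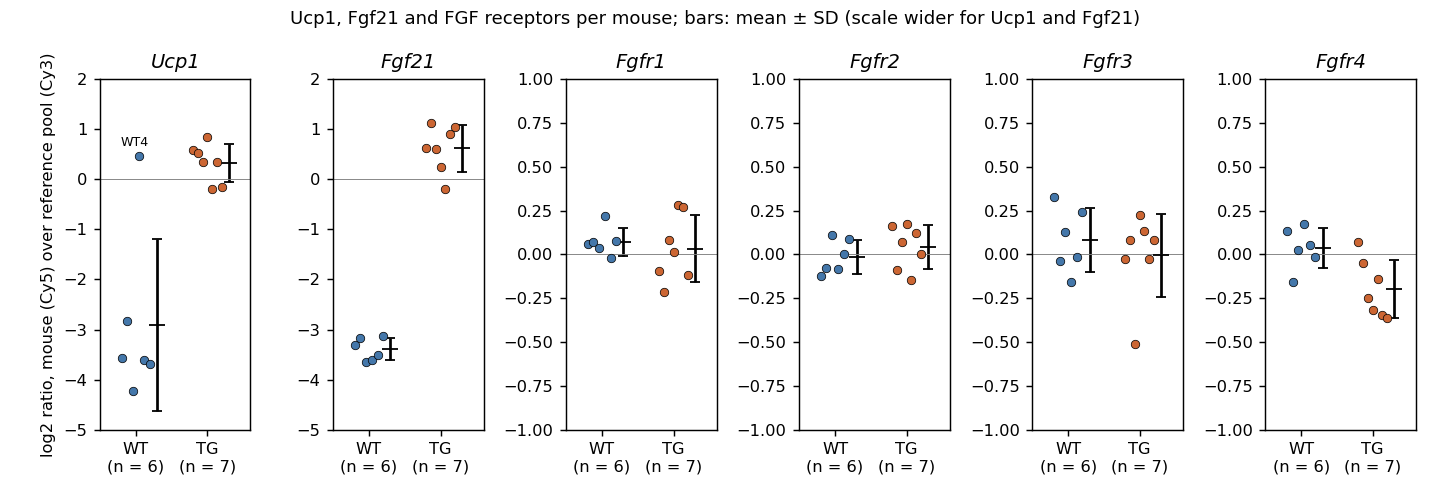
Log2 ratio of mouse over reference pool for Ucp1, Fgf21 and the 4 receptor genes, with 1 point per mouse and bars for mean ± SD (6 wild type, WT, and 7 transgenic, TG); Ucp1 and Fgf21 have a wider vertical scale than the receptors. For Fgf21 all 7 transgenic mice lie above all 6 wild types, for Ucp1 the array labelled wild type 4 (WT4) lies among the transgenic mice, and for the receptors the groups overlap.

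Fgf21 was measured in both groups and not only where it was high. Its single probe was well above background on all 13 arrays, with Cy5 spots of 92.9 to 115 intensity units in wild type and 1728 to 4053 in transgenic muscles. The Cy3 spots of the pool were 1686 to 2643 units over all arrays. The array labelled wild type 4 read -3.60 for Fgf21, among the other wild types, although it read as a transgenic array for Ucp1. Without it the difference of Fgf21 was 3.97 ± 0.18 (SE, limma adjusted p = 4.5e-12). Within slides 1, 2, 3 and 4 the differences were 4.17, 4.02, 3.63 and 4.30. The only wild type on slide 1 was array 1, and the only transgenic array on slide 2 was array 3. The only wild type on slide 3 was the array labelled wild type 4, so every value within slide 3 rests on it. The offset used in the background correction draws dim spots toward a ratio of 1, and with Agilent's own log ratio the difference was 4.88.

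Markers of fat cells and of muscle fibres moved with the genotype, so they are set beside Fgf21. Of the 7 white adipocyte markers measured, 6 (85.7%) passed as higher in the transgenic muscles, beside 16.9% of all genes. The median difference of the 7 was 0.81, and all 7 passed without the array labelled wild type 4. Adiponectin (Adipoq) rose by 0.81 ± 0.16 and adipsin (Cfd) by 1.07 ± 0.12 on the log2 scale (SE), while leptin (Lep) was not measured. The summed Cy5 signal of the markers was 12718 to 29040 units in wild type and 25136 to 49171 in transgenic muscles. The ranges overlapped through the array labelled wild type 4 alone; the other 5 wild types reached 20307 units at most, below every transgenic muscle. With the marker mean as a covariate the difference of Fgf21 was 4.28 ± 0.29 (SE, limma adjusted p = 1.2e-08), and that of Ucp1 was 0.79 ± 0.59 (adjusted p = 0.440). In the same fit without the array labelled wild type 4, an alternative chosen after seeing the data, Fgf21 differed by 4.28 ± 0.46 (SE, limma adjusted p = 1.5e-05) and Ucp1 by 3.27 ± 0.49 (adjusted p = 0.000446). The marker mean itself rose with the genotype, so the covariate overlaps with the group and widens the SE. For Fgf21 the SE was 0.17 without the covariate. A call lost under the covariate therefore cannot separate genotype from marker content. Of the 6 hepatocyte markers, 1 was measured, Apoa2, and albumin (Alb) was not. Of the 6 skeletal muscle fibre markers, 4 passed as lower and 1 as higher (83.3% beside 33.0% of all genes), with a median difference of -0.60. They ran from -0.93 for Acta1 to 0.62 for Myh1. After median centring without loess 1 passed as higher and 0 as lower. The part of the fibre markers in the difference of Fgf21 was not tested.

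The Fgf21 probe lies at chr7:52869305-52869364 on the minus strand in mm9, per the array annotation. The stretch before its start site is shown because some of the genes nearest to it in profile carry 1 of the same short motifs. In the assembly GRCm38.p6 of RefSeq the 250 bases before the start are chr7:45615491-45615740, minus strand. Capitals mark, in order, the reverse complement of the C/EBP-ATF response element, whose letters are TGATGNAA, and an E-box, CACGTG.
Fgf21 promoter: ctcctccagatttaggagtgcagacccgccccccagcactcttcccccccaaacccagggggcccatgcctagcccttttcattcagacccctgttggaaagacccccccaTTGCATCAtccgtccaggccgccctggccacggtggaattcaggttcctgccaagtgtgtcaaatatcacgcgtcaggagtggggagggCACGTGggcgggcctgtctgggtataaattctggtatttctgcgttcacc

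The first motif lies 139 to 132 bases before the start and the E-box 50 to 45 bases before it, and they do not overlap. Elements of the first kind are bound by heterodimers of ATF4 with C/EBP proteins, and E-boxes by basic helix-loop-helix factors. Both strands of every RefSeq promoter window of 300 bases were searched. TGATGNAA was found in 1304 of 32851 windows (3.97%) and CACGTG in 2349 (7.15%). Of the 6 member genes with a window, Fgf21 alone held TGATGNAA, and Fgf21 and Fgfr2 held CACGTG. A match describes the letters and does not show that a factor was bound in these muscles.

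The genes whose profile over the 13 arrays was nearest to that of Fgf21 were found by the root mean square distance of log2 ratios, each taken relative to the gene's own wild-type mean, among 17133 genes with a value on every array. By construction this measure puts genes with a group difference of similar size first. The nearest was Gdf15, a circulating stress hormone, at a distance of 0.39, followed by the asparagine synthetase Asns at 0.42. The phosphoserine aminotransferase Psat1 was at 0.46, the mitochondrial folate enzyme Mthfd2 at 0.50 and the pseudokinase Trib3 at 0.53. The muscle ankyrin repeat protein gene Ankrd1 (0.55), Gm501 (0.63) and the cholesterol acyltransferase Soat2 (0.69) completed the 8 nearest. Their differences between the groups ran from 3.17 for Soat2 to 4.58 for Trib3, against 4.02 for Fgf21.

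**Figure D2:**
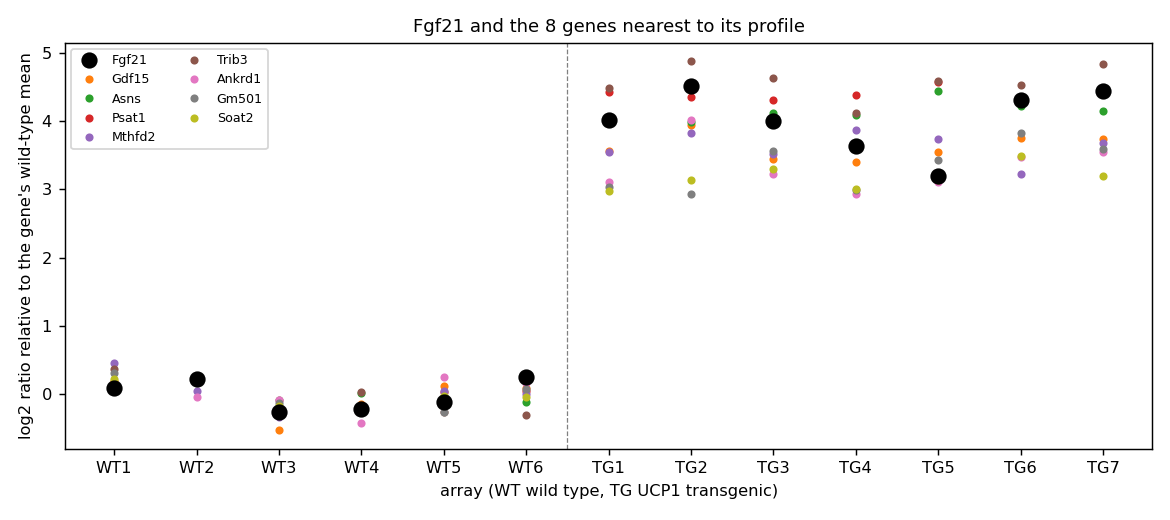
Log2 ratio relative to the gene's own wild-type mean, for Fgf21 (large black points) and the 8 genes nearest to its profile, on each of the 6 wild-type (WT) and 7 transgenic (TG) arrays. On every transgenic array all 9 genes lie well above their wild-type level, and the lowest transgenic value of Fgf21 is that of array 5.

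In wild type, Gdf15 was well above background on 4 of 6 arrays and Gm501 on 2 of 6, so their differences rest partly on dim spots. A second probe of Psat1 gave 1.50 in place of 4.41. Ranked with Agilent's own log ratio, Trib3 came first, Psat1 was 3, Asns 4, Mthfd2 8 and Gdf15 9, while Soat2 was 11, Gm501 12 and Ankrd1 17. Without the array labelled wild type 4, Gdf15 and Asns stayed first and second and Soat2 was 9. Of the 6 of these genes with a promoter window, Asns and Trib3 held TGATGNAA, and 1 of the windows of Gdf15 held CACGTG.

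The co-receptors were not measured in this muscle. The single probe of Klb, at chr5:65774926-65774985 on the plus strand of mm9, was well above background in Cy5 on 0 of the 13 arrays. Its Cy5 spots were 32.7 to 50.9 units in wild type and 40.6 to 51.2 in transgenic muscles. The 95th percentile of the 308 negative control spots of an array was 36.9 to 44.1 units. The probe exceeded that percentile on 3 of 6 wild-type and 7 of 7 transgenic arrays, so it sat at the edge of background. The reference pool was well above background for Klb on 1 of the 13 arrays.

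Dim probes were then kept and each probe was fitted on its own. The limma p of Klb was 0.0267, and 0.152 after Benjamini-Hochberg adjustment over all probes. In a separate fit by gene with dim probes kept, 15.7% of 34797 genes were called. No size of a difference is given for Klb, because neither group was well above background. Kl, the co-receptor of FGF23, was likewise well above background in 0 of 13 arrays, with Cy5 spots of 29.9 to 42.7 units in wild type and 34.4 to 41.5 in transgenic muscles. In the fit by probe its adjusted p was 0.858 in limma. A level under this limit is not shown to be absent.

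**Figure D3:**
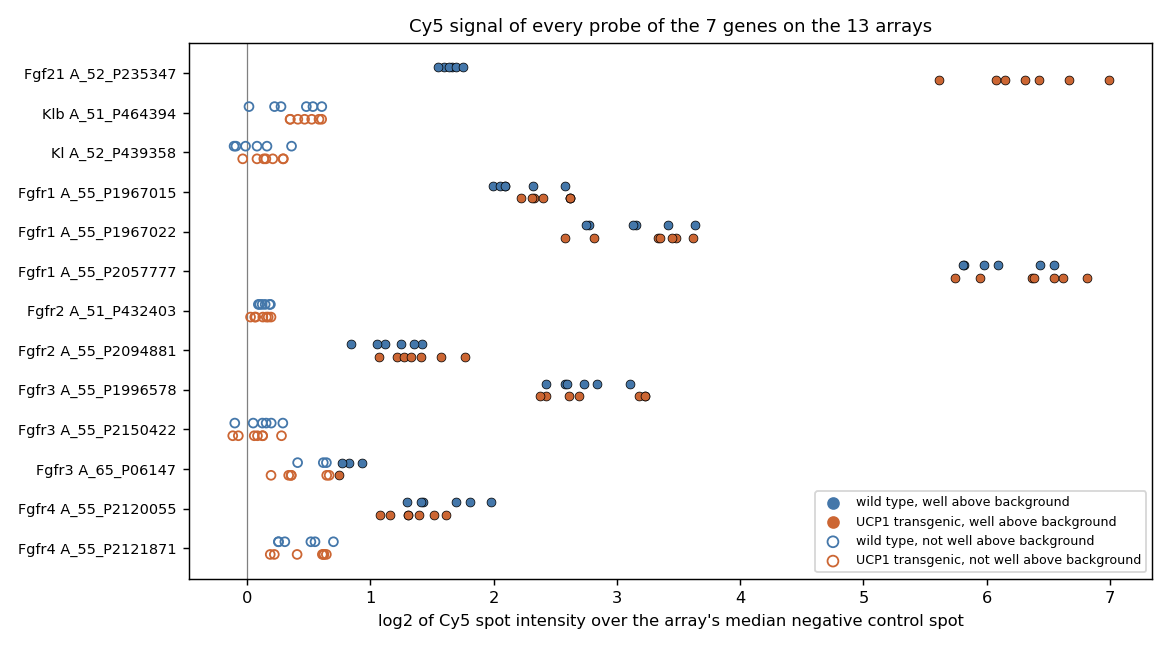
Cy5 spot intensity of each of the 13 probes of the 7 genes, as log2 over the array's median negative control spot, with 1 point per array; filled points were well above background by the scanner software's flag. Klb, Kl and 1 probe each of Fgfr2, Fgfr3 and Fgfr4 have open points only, and brightness may be compared within a row but not between rows.

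The receptors differed in how many of their probes gave signal. Fgfr1, the receptor that pairs with beta-klotho in fat, was well above background on all 13 arrays with each of its 3 probes. Fgfr2, which in its b and c splice forms serves epithelium and mesenchyme, was detected on all arrays with 1 probe and on none with the other. These probes overlap by 42 of their 60 bases. The undetected probe stayed at 32.5 to 40.4 Cy5 units over the 13 arrays, and the detected one at 58.1 to 122. Fgfr3, known for its restraint of bone growth, had 1 probe detected on all arrays, 1 on 4 and 1 on none. Fgfr4, the main FGF receptor of hepatocytes and also found in regenerating muscle, had 1 probe detected on all arrays and 1 on none.

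For Fgfr1, the wild-type muscles ran from -0.02 over a median of 0.06 to 0.22. The transgenic muscles ran from -0.21 over 0.01 to 0.28, which covers the whole wild-type range. The difference was -0.04 ± 0.08 (SE, 95% interval -0.21 to 0.13), with an adjusted p of 0.736 in limma. Its 3 probes gave -0.04, 0.00 and -0.11, and none passed the threshold, which 31.8% of all kept probes did. The array labelled wild type 4 was the highest wild type for Fgfr1 at 0.22, and without it the difference was -0.01.

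Fgfr2 read -0.12 to 0.11 in wild type with a median of -0.04, and -0.14 to 0.17 in transgenic muscles with a median of 0.07. The groups overlapped over nearly their whole range, and the difference was 0.06 ± 0.07 (SE, 95% interval -0.09 to 0.20, limma adjusted p = 0.574). Fgfr3 read -0.15 to 0.33 in wild type with a median of 0.06, and -0.51 to 0.22 in transgenic muscles with a median of 0.08. The transgenic array 3 was the low one, and the other 6 lay within the wild-type range. The difference of Fgfr3 was -0.09 ± 0.10 (SE, 95% interval -0.31 to 0.13, limma adjusted p = 0.558), and within the slides it was -0.30, -0.56, 0.33 and -0.09. Of these, -0.56 rests on the transgenic array 3 alone and 0.33 on the array labelled wild type 4 as the only wild type. Without the array labelled wild type 4, Fgfr2 differed by 0.04 and Fgfr3 by -0.14, and neither passed.

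A second Fgfr3 probe, at chr5:34077856-34078090 in mm9, was well above background on 3 wild-type arrays and 1 transgenic array, too few to enter the test. With dim probes kept it differed by -0.25 ± 0.07 (SE, limma adjusted p = 0.0320). Its values lie near background in both groups, and the brighter Fgfr3 probe did not pass.

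Fgfr4 was the receptor that passed. Its wild-type muscles ran from -0.16 over a median of 0.04 to 0.17, and the transgenic muscles from -0.36 over -0.25 to 0.07. The ranges overlapped: 6 of 7 transgenic mice lay below the wild-type mean and 4 of 7 below every wild type. The difference was -0.24 ± 0.08 (SE, 95% interval -0.40 to -0.07), 0.849 of the wild-type level, with an adjusted p of 0.0277 in limma. Of the 5 member genes tested 2 thus passed, Fgf21 and Fgfr4, where 33.0% of all genes did. Within the slides the differences of Fgfr4 were -0.13, -0.18, -0.40 and -0.38. The value of -0.40 has the array labelled wild type 4 as its only wild type.

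The Fgfr4 call did not hold in every setting. When the array labelled wild type 4 was left out it was -0.21 with an adjusted p of 0.0636, and the call was also lost without wild type 1 (0.0597) or without the transgenic arrays 4 (0.0572), 6 (0.0548) or 7 (0.0576). It was -0.56 with Agilent's own log ratio (limma adjusted p = 0.0034) and -0.47 with the adipocyte covariate (adjusted p = 0.0175). With that covariate and without the array labelled wild type 4 it was -0.58 ± 0.20 (SE), with an adjusted p of 0.101 in limma. With arrays centred on their median and no loess, the median of all genes moved to 0.14 and 7.55% of genes passed. Fgfr4 then read -0.12, or -0.27 relative to that median, with an adjusted p of 0.514.

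The Fgfr4 probe that gave no signal lies in the stretch that codes for the kinase domain, where FGF receptors resemble each other. It is shown beside an Fgfr1 probe from the matching stretch because a probe could pick up a related receptor. Capitals mark the bases that are identical in the best ungapped alignment, 35 of 58 aligned bases (60.3%).
Fgfr1 probe: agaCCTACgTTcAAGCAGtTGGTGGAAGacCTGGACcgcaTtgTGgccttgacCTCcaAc
Fgfr4 probe: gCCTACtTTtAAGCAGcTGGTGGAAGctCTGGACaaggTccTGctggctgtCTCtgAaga

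The Fgfr1 probe was detected on all 13 arrays, at 193 to 433 Cy5 units. The Fgfr4 probe was detected on none, at 36.2 to 55.2 units. The undetected probe says nothing of a difference, so that of Fgfr4 rests on 1 probe, at chr13:55270033-55270092 on the plus strand of mm9. That probe was well above background on all 13 arrays but dim. Its Cy5 spots were 79.5 to 137 units in wild type and 67.0 to 110 in transgenic muscles.

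Whether 1 member changed more than another was tested itself, on the difference of the log2 ratios within each array, over all 10 pairs of the 5 tested members. Fgf21 rose relative to each of the 4 receptors, by 3.96 to 4.25, in 7 of 7 transgenic mice (exact permutation, two-sided p = 0.000583, the smallest that 1716 splits can give, adjusted p = 0.00146). Without the array labelled wild type 4 these 4 pairs passed too, with 3.93 to 4.18 (exact permutation adjusted p = 0.00316). No pair of receptors passed with or without it. The nearest was Fgfr2 against Fgfr4, with 0.29 (exact permutation adjusted p = 0.0536). With Agilent's own log ratio Fgfr4 fell relative to Fgfr1 by 0.59 (exact permutation adjusted p = 0.0128) and relative to Fgfr2 by 0.64 (adjusted p = 0.0175, by the same permutation).

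**Figure D4:**
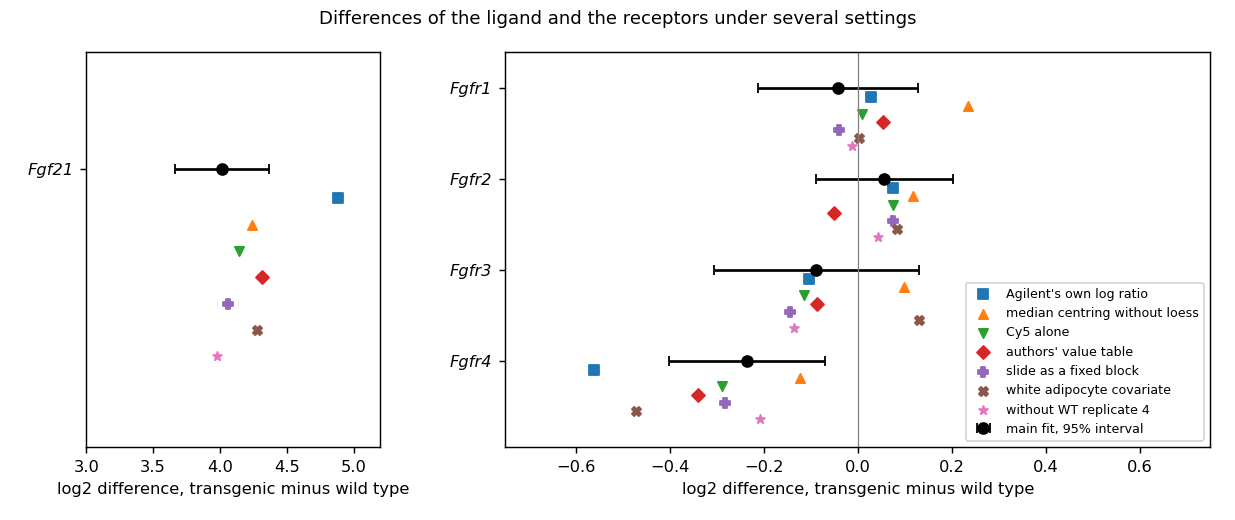
Difference between transgenic and wild-type muscles on the log2 scale for Fgf21 and the 4 receptors in the limma fit, with its 95% interval, and under 7 other settings; the axis of Fgf21 starts at 3. Fgf21 stays between 3.97 and 4.88, Fgfr4 stays below 0 in all settings shown, and Fgfr1, Fgfr2 and Fgfr3 take both signs.

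Among the 7 transgenic mice the level of Fgf21 was also set against each receptor. For Fgfr1, Pearson's r was -0.58 (exact permutation p = 0.173, adjusted p = 0.692 over 4 relations) and Spearman's rho -0.75 (p = 0.0663, adjusted p = 0.265). Without the transgenic arrays 2 and 5, the farthest from the Fgf21 median, r was 0.07, so the relation rests on those mice. With Agilent's own log ratio r for Fgfr1 was -0.76 (exact permutation p = 0.0502, adjusted p = 0.201), and -0.14 without those mice. For Fgfr2, Fgfr3 and Fgfr4 r was 0.12, -0.18 and -0.10, with exact permutation adjusted p = 0.816 for each, and rho -0.14, -0.29 and -0.11, with adjusted p = 0.840. Without the same mice r was -0.73, -0.10 and -0.26. No relation passed. On the 3 slides with 2 transgenic arrays, Fgf21 and Fgfr1 differed in opposite directions between these arrays: transgenic 2 minus 1 gave 0.51 and -0.12, 5 minus 4 gave -0.44 and 0.27, and 7 minus 6 gave 0.13 and -0.39. Fgfr4 was opposite to Fgf21 on all 3 slides as well, by 0.02 to 0.18 in size. Fgfr2 was opposite on 2 slides, and Fgfr3 had the direction of Fgf21 on all 3. With 3 such differences these relations could not reach significance within slides.

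Regulators of Fgf21 expression formed a list of 20 genes, of which 19 were measured. Higher in the transgenic muscles were 4, and 2 were lower, with a median difference of 0.03 against -0.00 over all genes. These 6 of 19 (31.6%) are near the 33.0% of all genes that passed. Without the array labelled wild type 4, 7 passed. Trib3, a pseudokinase that binds and restrains ATF4, rose most, by 4.58 ± 0.12 (SE). The transcription factor Atf5 rose by 2.61 ± 0.09 and Ddit3, which encodes CHOP, by 1.52 ± 0.09. Atf4, the central factor of the integrated stress response, rose by 0.80 ± 0.06. Each of these genes was higher in 7 of 7 transgenic mice than in every wild type, as in 7.35% of all genes, and the largest adjusted p among them was 2.9e-09 (limma). The nuclear receptor Rora differed by -0.33 and the myogenic factor Myod1 by -0.22; both passed but were picked for mention after their values were seen. Without the array labelled wild type 4 Rora no longer passed (limma adjusted p = 0.0642). Neither passed with the adipocyte covariate, where Rora read -0.47 and Myod1 -0.31 (limma adjusted p = 0.142 and 0.119). Neither did after median centring without loess, where Rora read -0.10 and Myod1 -0.06 (limma adjusted p = 0.839 and 0.827). Creb3l3, a liver regulator of Fgf21, was not measured. The list also held the kinase genes Eif2ak1, Eif2ak2, Eif2ak3 and Eif2ak4, whose products are not transcription factors. None of these kinase genes passed (limma adjusted p from 0.0525 to 0.716). Without the array labelled wild type 4, Eif2ak1 passed with -0.24 (limma adjusted p = 0.0398).

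Among the other FGF ligands 7 of 21 were measured, 2 were higher and none was lower (28.6%, where 33.0% of all genes passed), with a median of -0.02. Fgf7, keratinocyte growth factor, which acts through the b form of FGFR2, read -1.50 ± 0.13 (SD) over the 6 wild types and 0.73 ± 0.16 (SD) over the 7 transgenic muscles. The groups did not overlap, as in 7.35% of all genes with the transgenic arrays higher, and the difference was 2.22 ± 0.08 (SE, limma adjusted p = 1.7e-13). Fgf1, a ligand of all the receptors and named here after its value was seen, was higher by 0.50 ± 0.11 (SE, adjusted p = 0.00108 in limma). It had 2 kept probes, and the other gave -0.02. Fgf1 did not pass with the adipocyte covariate (0.30, limma adjusted p = 0.330) or after median centring without loess (adjusted p = 0.0775). Of the endocrine relatives, Fgf23 differed by -0.02 and Fgf15 was not measured.

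Of 9 other FGF binding proteins 7 were measured, 2 were higher and none was lower (28.6% beside 33.0% of all genes), with a median of 0.10. Lctl, the third member of the klotho family, differed by 0.36 ± 0.10 (SE, limma adjusted p = 0.0104), was well above background on 5 of 6 wild-type arrays and differed by 0.10 with the adipocyte covariate, where it did not pass. Fgfrl1, a receptor without a kinase domain, was higher by 0.22 ± 0.06 (SE, adjusted p = 0.00982 in limma), with 7 of 7 transgenic mice above every wild type (7.35% of all genes). Of 12 heparan sulfate proteoglycans 9 were measured, 3 were higher and 2 lower (55.6% beside 33.0% of all genes), with a median of 0.15, and 6 passed without the array labelled wild type 4. Glypican 3 (Gpc3) was higher by 0.32 ± 0.08 and syndecan 2 (Sdc2) by 0.30 ± 0.08, whereas syndecan 4 (Sdc4), which satellite cells also express, was lower with a difference of -0.35 ± 0.09 (SE). With the adipocyte covariate Sdc4 read -0.13 (limma adjusted p = 0.654) and Sdc2 0.26 (adjusted p = 0.253), and neither passed. None of these 5 named genes passed when arrays were centred on their median without loess (limma adjusted p from 0.0876 to 0.324).

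The relay from receptor to ERK held 20 genes, of which 18 were measured, 1 was higher and 6 were lower, with a median of -0.01. These 7 (38.9%) are near the 33.0% of all genes that passed, and 8 passed without the array labelled wild type 4. Ptpn11, which encodes the phosphatase SHP2, fell by 0.63 ± 0.09 on the log2 scale and Sos2, a guanine nucleotide exchange factor for Ras, fell by 0.61 ± 0.07 (SE, limma adjusted p = 1.1e-05 and 3.5e-06). For both genes 7 of 7 transgenic mice lay below every wild type, as in 7.13% of all genes. Neither passed after median centring without loess, where the differences relative to the median of all genes were -0.48 and -0.52. The docking protein gene Frs2 differed by 0.08 (adjusted p = 0.447 in limma).

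Genes known to be induced by FGF signalling, with its feedback inhibitors, formed a list of 17, of which 10 were measured. Higher were 2 (20.0%, where 33.0% of all genes passed), none was lower, and the median was 0.02. Egr1, an immediate early transcription factor that many stimuli induce, rose by 2.28 ± 0.20 and Etv5, an ETS factor, by 0.81 ± 0.09 (SE, limma adjusted p = 4.5e-08 and 7.3e-07). Both were higher in 7 of 7 transgenic mice than in any wild type, as in 7.35% of all genes. The others included Spry1, an inhibitor of the Ras pathway, at 0.03, and Dusp6, a phosphatase of ERK, at 0.01, both named after their values were seen. The ETS factor gene Etv4 differed by -0.08 and Fos, another immediate early gene, by -0.29 (limma adjusted p = 0.391 and 0.336).

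**Figure D5:**
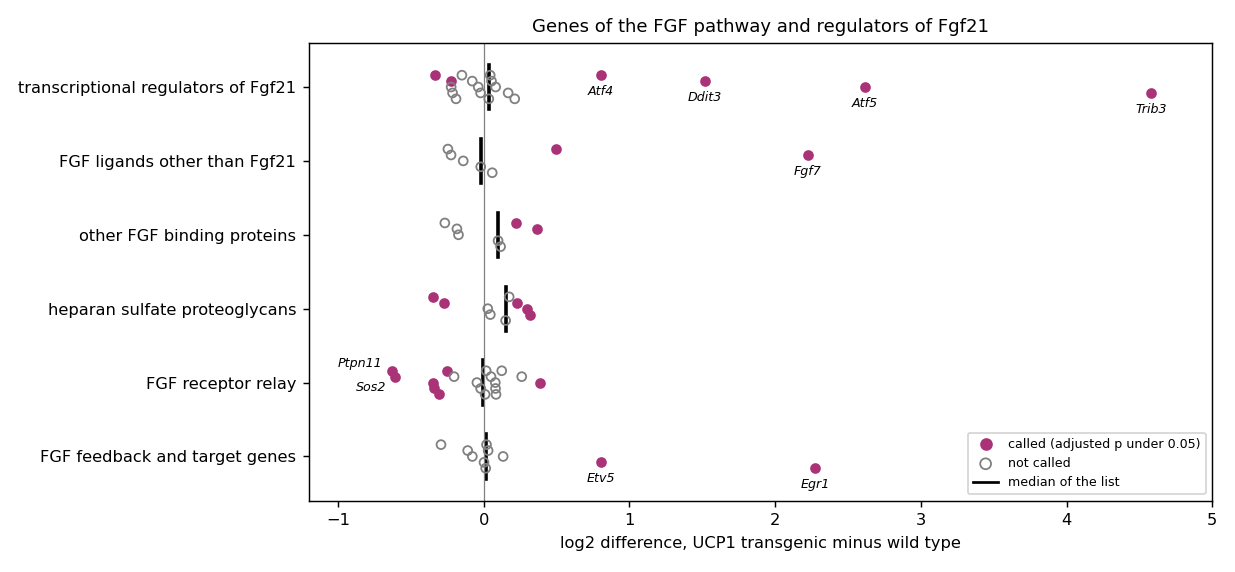
Log2 difference between transgenic and wild-type muscles for the measured genes of 6 lists around FGF21, with 1 point per gene, filled where the limma adjusted p was under 0.05, and a bar at the list's median. Medians run from -0.02 to 0.15, and the named genes past 0.5 in size stand away from the others of their list.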

How the data were processed

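The 13 deposited scanner files hold spot and background intensity per channel, other-valued flags and a log10 ratio, written by Agilent Feature Extraction 10.5.1.1, per the file headers. The deposited value table, 25583 rows taken as log2 values on a Cy5 scale (median 7.58 per array, correlation with own log2 Cy5 0.996 to 0.999), was an alternative; its normalization is not given in the sources used here. Mean signals were corrected by normexp (offset 50) and loess within arrays, in limma 3.58.1 and R 4.3.3. Controls and outlier spots (278 to 377 per array) were left out; none was saturated. A probe was kept if at least 6 of 13 arrays had it well above background in Cy5 (22716, 40.8%), and the brightest stood for each gene name. Groups were compared with lmFit and eBayes, two-sided, Benjamini-Hochberg over 17257 genes, threshold 0.05. All 13 arrays are labelled as individual mice. The number of arrays limits precision.

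The members and the gene lists were chosen with earlier results of these data known, and the lists are counted, not tested. Named genes were all members, Ucp1, called list genes with a difference of at least 0.5 (otherwise the 3 largest), the 8 nearest genes and adipocyte markers. Probe coordinates are mm9, per the array annotation; promoters are RefSeq, GRCm38.p6, where 6 of 7 members matched. Of the gene names, 4533 kept the array's own name without a match.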

Additional observations from a re-analysis of the deposited data

Results flagged for a closer look

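In 58 groups of 6 or 7 arrays, the gap between an extreme array and its nearest neighbour was compared with the group's range, and 4 arrays stood apart; chance marks about 1 group in 20. For Ucp1 the array labelled wild type 4 read 0.45, and the next wild type read -2.82. For Fgfr3 the transgenic array 3 read -0.51, and the next read -0.03. Without that array the difference of Fgfr3 was closest to 0 of all arrays left out, at -0.0045. For Fgf7 the wild-type array 5 read -1.75, and the next read -1.51. For Atf5 the transgenic array 2 read 1.17, and the next read 0.72. These arrays also lay with their own group for Fgf21.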

How the results depend on the processing

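Fgf21 kept its direction in all 31 other settings run, from 3.63 to 4.88, and its call in each that had a test; the 4 values within slides had none. The number of genes called was 1303 after median centring without loess and 2381 with the adipocyte covariate. Median centring also left 1 FGF ligand called and 0 binding proteins, 0 proteoglycans and 0 relay genes. Under it Fgfr1 read 0.23, Fgfr3 0.10 and Fgfr4 -0.12. With the adipocyte covariate Ucp1 was 0.79, Fgfr1 0.0037 and Fgfr3 0.13, and 1 binding protein, 1 proteoglycan and 4 relay genes were called. With that covariate and without the array labelled wild type 4, chosen after seeing the data, Fgfr1 was 0.34, Fgfr2 -0.0065, Fgfr3 0.029 and Fgfr4 -0.58. Fgfr1 was 0.028 with Agilent's own log ratio, where its second probe gave -0.038, 0.0085 with Cy5 alone and 0.055 with the authors' value table. That table gave -0.051 for Fgfr2 and 3 called proteoglycans. Called binding proteins numbered 1 with the filter on all 13 arrays and 4 with the mean over probes. Within slide 2, Fgfr1 was 0.030 and Fgfr3 -0.56. Within slide 3, whose only wild type is the array labelled wild type 4, Fgfr3 was 0.33 and Ucp1 -0.13. That array read 0.45 for Ucp1, against 0.85 and -0.20 in the transgenic arrays 4 and 5 of the slide. Within slide 4 Fgfr1 was 0.049. Leaving out single arrays gave -0.28 to -0.21 for Fgfr4, 2 to 4 called binding proteins, the latter without wild type 1, and -0.046 to 0.12 for Fgfr1 against Fgfr3, which was -0.0046 without wild type 1 and -0.046 without transgenic array 3. The correlations with Fgf21 were 0.068 for Fgfr1 and -0.73 for Fgfr2 without the extreme arrays. The cause of these shifts was not tested.

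With the replicate number as a block Fgfr4 read -0.21 (limma adjusted p = 0.0706). With this block 5369 genes were called. Between arrays of the same number r ran from -0.23 to 0.23, and the own number was the best match for 0 of 6. Arrays numbered 1, 3, 4 and 6 also shared a slide with their counterpart (r of 0.15, 0.07, 0.13 and 0.23). Those numbered 2 and 5 did not (r of -0.23 and -0.16). Number and slide thus overlap, and these values cannot show what else the arrays of a number share. Signal over background limits what can be said of Klb, Kl and the dim probes.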
